A study of Mus musculus with 12 samples.

Results

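Rhox5, Rhox6 and Rhox9 are homeobox genes of the reproductive homeobox (Rhox) cluster on the mouse X chromosome. They are 3 of 57180 listed genes and 3 of the 42 listed Rhox genes and pseudogenes, picked by symbol as the family members expressed in these embryonic stem (ES) cells. That choice used their measured levels, so the levels are a description, and differences between genotypes were already known from earlier results of the same libraries. RNA was measured in C57BL/6 mouse ES cells of 4 genotypes with 3 libraries each, namely wild type (WT), cells null for Mphosph8, whose protein is MPP8 (MP8), cells null for Tasor (Tas) and cells null for Pphln1 (Pph). The labels do not say how the null alleles were made, whether a genotype is 1 clone, or whether libraries stand for different cultures. P-values therefore cover the spread among the sequenced libraries, which may be technical. Sequencing of libraries from total RNA gave 17918770 to 21962079 estimated counts per library.

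The Rhox cluster holds tandem homeobox genes that are used mainly in testis, epididymis, ovary, placenta and germ cells. Its genes are known to be silenced by DNA methylation in somatic lineages, while Rhox5, also called Pem, is active in ES cells and in extraembryonic tissue. Rhox6 and Rhox9, also called Psx1 and Psx2, are a closely related pair known from placenta and germ cells. MPP8, TASOR and periphilin, the product of Pphln1, together form HUSH, a complex that keeps retroelements silent and acts with the methylation of lysine 9 of histone H3.

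Rhox6 and Rhox9 share stretches of sequence, and their coding sequences are 90.6% identical over 681 aligned bases of GENCODE M21 transcripts. The longest exact run spans 161 bases, coding bases 167 to 327 in each gene. That run is printed with 15 bases on each side since a read lying within it matches both genes, and capitals mark the bases that differ.
Rhox6: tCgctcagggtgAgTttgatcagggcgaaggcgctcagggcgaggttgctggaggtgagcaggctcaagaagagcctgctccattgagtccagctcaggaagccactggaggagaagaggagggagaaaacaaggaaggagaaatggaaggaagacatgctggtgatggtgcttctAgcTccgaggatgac
Rhox9: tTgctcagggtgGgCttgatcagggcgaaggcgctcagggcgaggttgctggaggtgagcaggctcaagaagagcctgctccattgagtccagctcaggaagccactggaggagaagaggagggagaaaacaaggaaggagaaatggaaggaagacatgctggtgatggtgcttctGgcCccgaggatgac

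Further along the coding sequence the pair can be told apart. The 90-base stretch that differs most, coding bases 373 to 462, has 22 differing bases, again in capitals.
Rhox6: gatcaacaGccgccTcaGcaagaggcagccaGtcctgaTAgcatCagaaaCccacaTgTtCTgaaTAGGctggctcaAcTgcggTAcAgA
Rhox9: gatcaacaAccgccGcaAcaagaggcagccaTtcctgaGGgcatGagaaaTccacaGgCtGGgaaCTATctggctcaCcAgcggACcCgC

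Rhox5 is more distant. Its coding sequence was 61.3% identical to that of Rhox6 and 66.0% identical to that of Rhox9 over the aligned bases, and the longest exact run it shared with either was 15 bases. The deposited counts show the same division. Rhox5 had a whole number of estimated counts in 12 of 12 libraries, with a tolerance of 1e-06. Rhox6 and Rhox9 had a fractional count in the same 7 libraries, and their sum was whole in all 12, so part of the reads had been shared out between the pair. Values of Rhox6 and Rhox9 alone therefore rest partly on that allotment, and those of Rhox5 and of the sum of the pair do not. Both counts were whole in each MP8 library and fractional in WT replicates 1 and 3. A whole count does not show that no read matched both genes.

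Of the members, Rhox5 was matched in the RefSeq promoter table, and Rhox6 and Rhox9 were not. Which start of Rhox5 these ES cells use was not tested. The Rhox5 promoter listed there, chrX:37754358-37754657 on the plus strand of GRCm38.p6, runs from 250 bases before to 50 after the annotated start. It is printed with CpG dinucleotides, the sites of DNA methylation, in capitals.
Rhox5 promoter: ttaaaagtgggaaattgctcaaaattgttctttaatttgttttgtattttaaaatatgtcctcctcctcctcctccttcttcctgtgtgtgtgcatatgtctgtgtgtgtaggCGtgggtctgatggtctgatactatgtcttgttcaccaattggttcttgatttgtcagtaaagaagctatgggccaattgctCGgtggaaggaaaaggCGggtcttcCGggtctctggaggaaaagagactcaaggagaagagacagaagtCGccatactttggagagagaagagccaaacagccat

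This promoter holds 5 CpG, and 62.0% of the 32851 promoters in the table hold as many or more, against a median of 7. Its letters match the ETS core CCGGAA once, on the minus strand at positions -33 to -28 from the start, a match found on either strand in 14.9% of the promoters. It holds no match on either strand to GGGCGG for Sp1 (35.7% of promoters), to the octamer ATGCAAAT (1.74%) or to the TATA box TATAAA (13.6%). The ETS match overlaps 1 of the CpG.

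The mean level of each of the 3 genes was lower in the null cells than in WT. The means of Rhox6 and Rhox9 ran in the same order of genotypes, from WT through Tas and Pph to MP8. Those of Rhox5 ran from WT through MP8 and Tas to Pph. Rhox5 was lowest in Pph, at 33.4% of its WT mean, and Rhox6 in MP8, at 13.1%. Rhox9 was lowest in MP8, at 61.3%, and did not pass the test in Tas. Fold changes come from 1 edgeR quasi-likelihood fit of the 12 libraries over 16840 tested genes, with p-values adjusted by Benjamini-Hochberg over all of them and a threshold of 0.05. Levels are in TPM, the authors' transcript levels scaled for length and depth. CPM are counts scaled to effective library size, with no scaling for length. In MP8, 3 of the 3 genes were called lower, where 32.2% of tested genes were. In Tas the count was 2 of 3 with 25.5% of tested genes called lower, and in Pph 3 of 3 with 25.7%. The same members had libraries that all lay below WT in CPM, as did 34.1% of tested genes in MP8, 28.9% in Tas and 27.1% in Pph. In bulk RNA, fewer cells expressing a gene and less RNA per cell cannot be told apart.

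**Figure D1:**
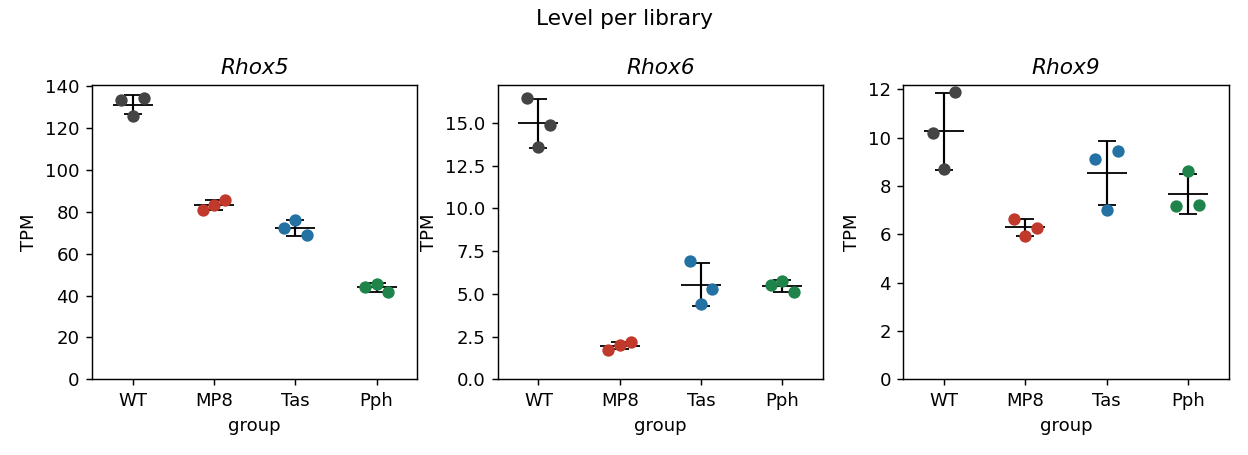
Level in TPM (y axis, from 0) of Rhox5, Rhox6 and Rhox9 in each library of WT, MP8, Tas and Pph (x axis); points are libraries, the horizontal mark is the mean and the bars are the SD of 3 libraries. Rhox5 falls stepwise from WT to Pph, Rhox6 is lowest in MP8, and the Rhox9 points of WT and Tas overlap.

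Rhox5 (ENSMUSG00000095180), a transcription factor of Sertoli cells, placenta and early embryo, was the most abundant of the 3. It stood at 134, 126 and 134 TPM in the WT libraries, at 80.8, 83.5 and 85.5 in MP8, at 72.1, 76.0 and 68.7 in Tas and at 44.2, 45.7 and 41.6 in Pph. No library of one group lay within the range of another. The group means were 131 ± 4.70, 83.2 ± 2.39, 72.3 ± 3.64 and 43.9 ± 2.07 TPM (SD, n = 3 each).

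Against WT, Rhox5 fell by 0.76 on the log2 scale in MP8 (SE 0.06, edgeR adjusted p = 4.79e-13), by 0.90 in Tas (SE 0.06, adjusted p = 1.69e-14) and by 1.75 in Pph (SE 0.06, adjusted p = 1.08e-20). The last is 3.36-fold lower, and 0.843% of tested genes had a lower log2 fold change in Pph. Pph also lay below the other null groups, with MP8 higher than Pph by 0.99 ± 0.06 (SE, edgeR adjusted p = 4.93e-14) and Tas higher than Pph by 0.85 ± 0.07 (adjusted p = 1.95e-12) on the log2 scale. Of all tested genes, 27.4% were called higher and 31.4% lower in MP8 than in Pph, and 28.5% higher and 29.3% lower in Tas than in Pph. MP8 and Tas are neighbours in this order whose difference is not firm. It was 0.14 ± 0.06 (SE) in log2, edgeR adjusted p = 0.0468, with 27.7% of tested genes called higher in MP8. The call was lost with no low-count filter (adjusted p = 0.0935), with DESeq2 (0.0581), and without MP8 replicate 2 (0.0802), MP8 replicate 3 (0.162), Tas replicate 1 (0.104) or Tas replicate 3 (0.208). With the replicate number as a block it was lost too (0.0615).

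Rhox6 (ENSMUSG00000006200), one of the placental and germ cell pair, had the lowest log2 fold change of the 9 against WT. Its WT libraries held 16.5, 13.6 and 14.9 TPM, the MP8 libraries 1.73, 2.01 and 2.16, the Tas libraries 6.89, 4.42 and 5.27, and the Pph libraries 5.54, 5.77 and 5.08. MP8 lay below all other libraries, Tas and Pph overlapped, and WT lay above the rest. Means were 14.98 ± 1.44 TPM in WT, and in null cells 1.97 ± 0.218 in MP8, 5.53 ± 1.25 in Tas and 5.46 ± 0.351 in Pph (SD, n = 3 each).

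In MP8, Rhox6 fell by 3.03 on the log2 scale (SE 0.19, edgeR adjusted p = 1.35e-14), which is 8.15-fold lower. In that comparison 32 of the 16840 tested genes had a lower log2 fold change. The value rests on 18, 19 and 23 estimated counts in the MP8 libraries against 204, 150 and 180 in WT. In Tas, Rhox6 fell by 1.496 (SE 0.16, adjusted p = 2.43e-09) and in Pph by 1.62 (SE 0.16, adjusted p = 6.11e-10). MP8 was lower than Tas (log2 difference -1.53 ± 0.22 SE, adjusted p = 4.83e-07) and lower than Pph (-1.41 ± 0.22 SE, edgeR adjusted p = 2.49e-06), where 28.4% and 31.4% of tested genes were called lower. The difference between Tas and Pph was within their spread, with a log2 difference of 0.13 and a 95% interval from -0.25 to 0.50 (adjusted p = 0.578). Without Tas replicate 1 that difference turned to -0.053.

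Rhox9 (ENSMUSG00000068048), the partner of Rhox6, had the smallest log2 fold change of the 3 genes in Tas and in Pph. In MP8 its change was close to that of Rhox5. Rhox9 stood at 10.2, 8.72 and 11.9 TPM in WT, at 6.65, 5.94 and 6.27 in MP8, at 9.14, 7.01 and 9.44 in Tas and at 7.17, 8.63 and 7.20 in Pph. MP8 and Pph lay below the WT libraries, while Tas overlapped with WT and with Pph. The means were 10.3 ± 1.59, 6.29 ± 0.355, 8.53 ± 1.32 and 7.67 ± 0.834 TPM (SD, n = 3 each).

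Rhox9 fell by 0.81 on the log2 scale in MP8 (SE 0.17, edgeR adjusted p = 0.000147) and by 0.57 in Pph (SE 0.17, adjusted p = 0.00477). In Tas the log2 fold change was -0.29 ± 0.16 (SE), with a 95% interval from -0.63 to 0.04 and an adjusted p = 0.133. That test passed the threshold without WT replicate 2, at -0.41 (adjusted p = 0.0493), the WT library with the lowest level. Among null groups, MP8 was below Tas (-0.52 ± 0.18 SE, adjusted p = 0.0136), a call lost without Tas replicate 1 (0.0516) or Tas replicate 3 (0.067). Pph lay between them, and neither its difference from Tas (adjusted p = 0.181) nor from MP8 (0.252) passed.

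**Figure D2:**
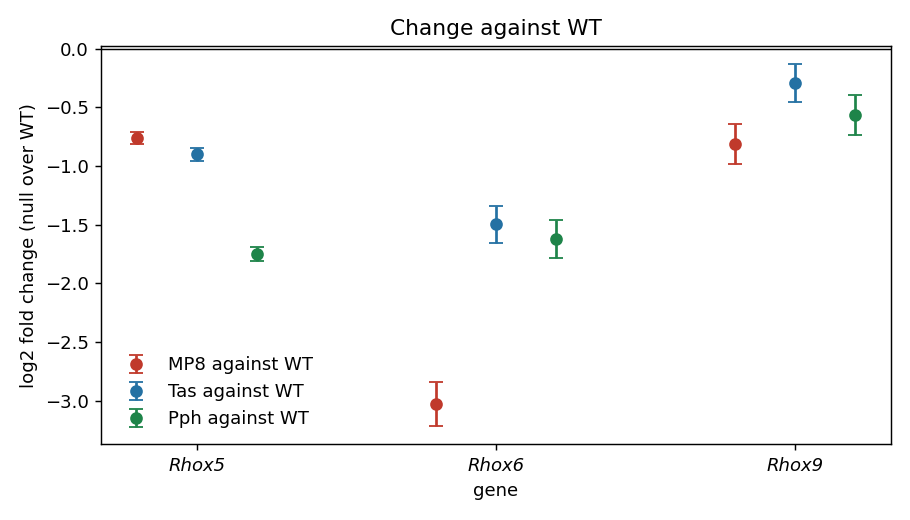
Log2 fold change against WT (y axis) of Rhox5, Rhox6 and Rhox9 (x axis) in MP8, Tas and Pph, as edgeR estimates with bars of 1 SE; the 3 comparisons share the WT libraries. The lowest point of Rhox5 is Pph at -1.75 and that of Rhox6 is MP8 at -3.03, while the Rhox9 point of Tas, at -0.29, lies nearest to 0.

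The authors' deposited table gave log2 fold changes of -0.75, -0.90 and -1.79 for Rhox5 in MP8, Tas and Pph. For Rhox6 the authors' deposited table gave -3.02, -1.49 and -1.66. For Rhox9 the authors' deposited table gave -0.80, -0.29 and -0.61, with adjusted p-values of 0.00472, 0.384 and 0.0346.

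Since reads were shared out between Rhox6 and Rhox9, the pair was also read as 1 sum. In CPM, the pair held 14.2, 11.4 and 14.02 in WT, 3.77, 3.63 and 3.85 in MP8, 7.96, 5.59 and 7.19 in Tas and 5.71, 6.60 and 5.58 in Pph. WT lay above the null libraries, MP8 below the rest, and Tas overlapped with Pph. The mean of the pair came to 28.4% of WT in MP8, while Tas kept 52.3% and Pph 45.2%.

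Rhox5 dominated the sum of the 3 genes. The sum was 156 ± 7.22 TPM in WT, and in null cells 91.5 ± 2.41 in MP8, 86.3 ± 2.55 in Tas and 57.0 ± 3.11 in Pph (SD, n = 3 each). The null sums were 58.5%, 55.2% and 36.4% of WT, with MP8 libraries from 89.1 to 94.0 TPM just above the Tas libraries, which ranged from 83.4 to 88.2. In CPM the sum was 75.1 ± 5.28 in WT, and in null cells 40.2 ± 1.19 in MP8, 40.1 ± 1.15 in Tas and 24.4 ± 1.60 in Pph, and there MP8 and Tas overlapped. Similar sums in MP8 and Tas hid different make-ups. Rhox6 made up 9.57 ± 0.626% of the summed TPM in WT, and in null cells 2.15 ± 0.185% in MP8, 6.396 ± 1.38% in Tas and 9.58 ± 0.153% in Pph. Rhox9 made up 6.54 ± 0.765%, 6.88 ± 0.512%, 9.90 ± 1.70% and 13.4 ± 0.885%.

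Ratios within a library do not depend on library scaling and compare how far the genes changed. Rhox6 over Rhox9 was 1.62, 1.56 and 1.25 in WT, 0.26, 0.338 and 0.344 in MP8, 0.754, 0.631 and 0.558 in Tas and 0.773, 0.669 and 0.706 in Pph. Rhox6 was thus the higher of the pair in each WT library and the lower in each of the 9 null libraries. Rhox6 over Rhox5 was 0.114 ± 0.00819 in WT and 0.0236 ± 0.00196 in MP8, a log2 difference of -2.27. In Tas it was 0.0768 ± 0.0187, a log2 difference of -0.60, and in Pph 0.124 ± 0.00218, with ranges that overlapped WT (exact permutation p = 0.2). Rhox9 over Rhox5 overlapped between WT, at 0.0780 ± 0.00973, and MP8, at 0.0756 ± 0.00593 (exact permutation p = 0.7). It was 0.119 ± 0.0236 in Tas and 0.175 ± 0.0134 in Pph (SD, n = 3 each), with each library above those of WT.

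For the other 7 of the 9 ratio comparisons with WT, the libraries did not overlap and the exact two-sided permutation p was 0.1, the smallest that 3 against 3 libraries allow. The Benjamini-Hochberg value over the 9 tests was 0.129, so none could pass 0.05.

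**Figure D3:**
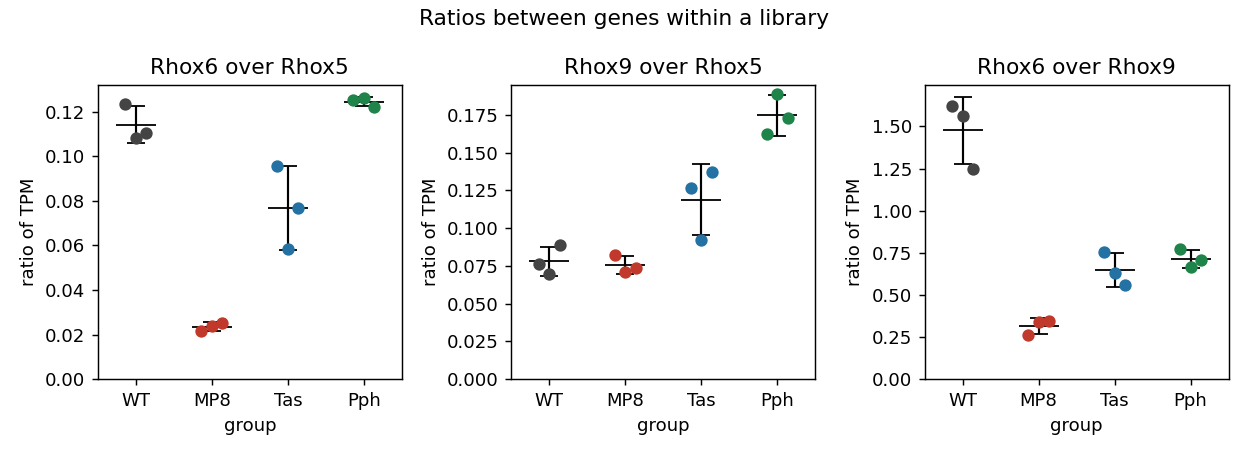
Ratio of TPM (y axis, from 0) of Rhox6 over Rhox5, Rhox9 over Rhox5 and Rhox6 over Rhox9 in each library of the 4 groups (x axis); points are libraries, marks are means and bars the SD of 3 libraries. Rhox6 over Rhox9 lies above 1 in the WT libraries and below 1 in the null libraries, and Rhox6 over Rhox5 in Pph lies near WT.

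The rest of the family was at low or undetected levels. Of the 39 other listed Rhox genes and pseudogenes, 22 had 0 counts in the 12 libraries, which allows up to 3 counts per library or 0.137 to 0.167 CPM, for counting error only. At least 1 count was seen for the other 17, and the highest level of any of them was 1.52 TPM. The pseudogene Rhox7-ps2 had 13, 19 and 14 counts in WT, 8, 10 and 13 in MP8, 19, 23 and 29 in Tas and 5, 9 and 7 in Pph. It fell in Pph (log2 fold change -1.003, SE 0.39, edgeR adjusted p = 0.0305), and its values of -0.45 in MP8 (adjusted p = 0.289) and 0.70 in Tas (0.0697) did not pass. Rhox1, the first gene of the cluster, had 14, 11 and 15 counts in WT, 8, 14 and 10 in Tas, 6, 5 and 1 in Pph and 1 in each MP8 library. Relative to library totals, Rhox1 in MP8 was 0.0834 of WT, with an exact 95% counting interval from 0.0165 to 0.262. The ratio was 0.337 in Pph (0.161 to 0.655) and 0.841 in Tas (0.511 to 1.37). Rhox1 was called lower by edgeR in MP8 (adjusted p = 2.93e-05) and in Pph (0.00703), and not in Tas (0.662). It passed the low-count filter through its WT libraries, the group where its summed counts were highest. These calls are therefore conditional on a high WT level and are given as a description. The rest reached at most 8 counts in any library, namely Rhox2a, Rhox2b, Rhox2e, Rhox2g, Rhox3g, Rhox4a, Rhox4a2, Rhox4d, Rhox4e, Rhox4g, Rhox7a, Rhox7-ps1, Rhox10, Rhox12 and Rhox13. Rhox2, Rhox3 and Rhox4 copies are known to be close to identical, and several had fractional counts, so their single values are uncertain.

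The genes beside the cluster moved in both directions. Of the 20 nearest listed genes that GENCODE M21 gives as protein-coding, 10 on each side outside the cluster, 12 were tested. Nkrf, Septin6, Rpl39, Upf3b, Nkap, Ndufa1 and Rnf113a1 lie on one side and Zbtb33, Lamp2, Cul4b, Mcts1 and C1galt1c1 on the other. In MP8, 3 of the 12 were called lower and 2 higher with a median log2 fold change of 0.02, against -0.02 over all tested genes. In Tas 2 were lower and 3 higher with a median of -0.06, against -0.01, and in Pph 4 were lower and 3 higher with a median of -0.05, against 0.04. The lowest neighbours were Rnf113a1, a ubiquitin ligase and splicing factor, at -0.52 in MP8 and -0.38 in Tas, and Ndufa1, a subunit of respiratory complex I, at -0.59 in Pph. Zbtb33 encodes Kaiso, a protein that binds methylated CpG. It rose by 0.77 in MP8 (edgeR adjusted p = 4.86e-10), by 0.33 in Tas (0.000842) and by 0.72 in Pph (3.22e-09). Over all tested genes, 30.0% were called higher in MP8, 26.2% in Tas and 30.6% in Pph. Over 591 tested X-linked genes outside the Rhox family the median log2 fold change was 0.02 in MP8, -0.03 in Tas and 0.11 in Pph, with 28.8%, 27.9% and 24.0% of them called lower.

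**Figure D4:**
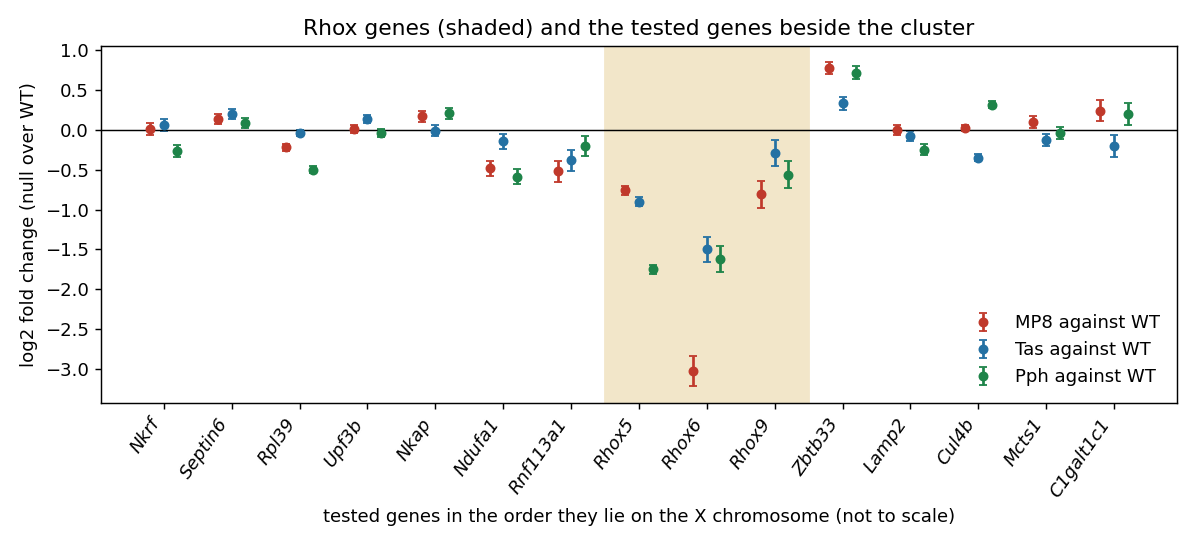
Log2 fold change against WT (y axis, edgeR estimate with bars of 1 SE) of Rhox5, Rhox6 and Rhox9 (shaded) and of the 12 tested genes beside the cluster, in their order on the X chromosome and not to scale (x axis), for MP8, Tas and Pph; other Rhox genes are left out. The neighbours range from -0.59 for Ndufa1 in Pph to 0.77 for Zbtb33 in MP8, and Rhox6 in MP8 lies at -3.03.

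Genes with known roles in silencing the cluster or in DNA and histone methylation moved in mixed directions. Of 28 tested regulators, 11 fell and 10 rose in MP8, 6 fell and 15 rose in Tas, and 15 fell and 7 rose in Pph, with median log2 fold changes of -0.08, 0.08 and -0.10. Over all tested genes, 32.2% were called lower and 30.0% higher in MP8, 25.5% and 26.2% in Tas, and 25.7% and 30.6% in Pph. Those that changed most in MP8 were the linker histones H1f2 (-1.505 ± 0.16 SE) and H1f10 (-1.37 ± 0.30) and the methylcytosine oxidases Tet2 (-1.34 ± 0.06) and Tet3 (0.79 ± 0.07). In Tas they were H1f10 (-1.42 ± 0.30 SE), H1f2 (-1.16 ± 0.16), the remodeller Hells (0.83 ± 0.04) and the DNA methyltransferase Dnmt3b (-0.76 ± 0.03). In Pph they were H1f1 (-2.16 ± 0.52 SE), Dnmt3l, the cofactor of DNA methyltransferases (-1.05 ± 0.03), Tet2 (-1.004 ± 0.06) and H1f10 (-0.78 ± 0.28). The H1f1 value rests on few reads, with 12 summed counts in Pph against 60 in WT. H1f10 varied widely among the WT libraries, at 16.1 ± 6.51 CPM (SD, n = 3). The part of these genes in the Rhox values was not tested.

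Markers of other cells that use Rhox genes moved with genotype as well. Their counts, and those of the marker lists after them, stand beside the same background, in which 32.2% of tested genes were called lower and 30.0% higher in MP8, 25.5% and 26.2% in Tas, and 25.7% and 30.6% in Pph. Of 8 tested primordial germ cell markers, 6 fell and 0 rose in MP8, 4 fell and 1 rose in Tas, and 5 fell and 1 rose in Pph. Their summed level was 149 to 155 CPM in WT, and in null cells 75.3 to 78.4 in MP8, 101 to 109 in Tas and 107 to 109 in Pph. Dppa3, a factor of naive ES cells and germ cells, was among those that fell in each comparison, with log2 fold changes of -2.27, -1.42 and -1.58 in MP8, Tas and Pph. Trophectoderm and placenta markers summed to 166 to 168 CPM in WT, and in null cells 140 to 147 in MP8, 110 to 115 in Tas and 858 to 903 in Pph, where 9 of 11 tested markers rose and 1 fell. In MP8 6 rose and 3 fell, and in Tas 5 fell and 0 rose. Most of the summed level in Pph came from the keratins Krt8, at 440 CPM against 47.6 in WT, and Krt18, at 292 against 32.8. Several transcription factor genes of the list rose in Pph too. Hand1 stood at 34.7 CPM there against 3.12 in WT, Gata3 at 3.43 against 0.781 and Tead4 at 42.0 against 25.7. Tfap2c was the 1 that fell, at 20.1 against 37.9, and Eomes did not pass (edgeR adjusted p = 0.436). The germ cell and the placental list share Tfap2c. The defining placental genes Tpbpa and Prl2c2 were at 0 counts in the 12 libraries, and Prl3d1 was at 0 in WT, MP8 and Pph. Primitive and visceral endoderm markers, from a tissue known to express Rhox5, rose for 8 of 11 in MP8, 3 in Tas and 8 in Pph, with 1, 0 and 0 lower, and Ttr was at 0. Their sums ran from 336 to 369 CPM in WT, and in null cells 421 to 428 in MP8, 370 to 384 in Tas and 683 to 705 in Pph. Most of each sum came from the laminin genes Lama1 and Lamb1 and the collagen genes Col4a1 and Col4a2. The transcription factor genes Gata4, Gata6 and Sox7 did not pass in Pph (edgeR adjusted p = 0.0792, 0.77 and 0.249). In MP8 Gata4 and Gata6 rose (0.00485 and 0.00386) and Sox7 did not pass (0.754). Gata6 was low, at 0.976 CPM in MP8 against 0.368 in WT, 0.273 in Tas and 0.414 in Pph. Its tests are therefore conditional on its MP8 level and are given as a description, and the count of 8 in MP8 includes it. The part of these cell states in the Rhox values was not tested.

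Sertoli cell markers summed to 14.3 CPM or less in each library, with Fshr at 0 counts, and of the 4 tested 1 fell and 2 rose in MP8, 1 fell in Tas and 2 fell in Pph. Of 7 tested feeder fibroblast markers, 3 rose in MP8, 1 rose and 3 fell in Tas and 6 rose in Pph. Their level summed to 79.3 to 80.2 CPM in WT, and in null cells 171 to 178 in MP8, 86.6 to 89.0 in Tas and 117 to 126 in Pph. Most of the rise of that sum in MP8 came from Vim, the intermediate filament vimentin, at 152 CPM against 63.5 in WT. The collagen genes Col1a1, at 4.40 CPM against 4.07, and Col1a2, at 1.96 against 1.64, did not pass the test there. Another collagen gene of the list, Col3a1, rose in MP8 to 3.14 CPM against 0.479 in WT (edgeR adjusted p = 2.27e-10). In Pph these collagen genes rose, Col1a1 to 19.1 CPM, Col1a2 to 7.91 and Col3a1 to 5.60, and in Tas they were called lower. Col3a1 was low in WT and in Tas (0.166 CPM). Its tests are therefore conditional on its levels in MP8 and Pph and are given as a description. ES cell markers were present throughout, at 2882 to 3925 CPM per library, with 9 of 10 lower and 1 higher in MP8, 7 lower and 2 higher in Tas and 10 lower in Pph. Pou5f1 and Tdgf1 were the most abundant markers of this list and changed little in MP8 (log2 fold changes -0.085 and 0.10). Less abundant markers changed more. Klf4 had the lowest log2 fold change of the list for every null group (MP8 -2.64, Tas -2.92, Pph -2.28). Tfcp2l1 followed (MP8 -2.55, Tas -0.74, Pph -0.86), and Esrrb stood at -1.28 for MP8. Zfp42 went the other way in Tas (0.63). Each disrupted gene had less RNA in its own null group, with Mphosph8 at 0.0494 to 0.705 CPM in MP8 against 110 to 117 in WT, Tasor at 30.7 to 33.1 in Tas against 125 to 130, and Pphln1 at 19.8 to 23.1 in Pph against 66.7 to 71.9. The Y-linked genes Ddx3y, Eif2s3y, Kdm5d and Uty were detected in the 4 groups. Of these with Xist and Tsix, 2 fell and 2 rose in MP8, and 6 rose in Tas and in Pph. Xist, the RNA of X inactivation, which overlaps its antisense partner Tsix, rose from 2.30 CPM in WT to 18.2 in MP8, 8.23 in Tas and 6.89 in Pph. Whether Xist has a part in the Rhox values was not tested.

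The genes whose pattern over the 12 libraries was nearest to each member differed between members. Likeness was the root-mean-square difference of log2 CPM, each gene centred on its own mean, over 12972 other genes of at least 1 CPM with a name that is not a predicted model. Rhox5 was nearest to Igsf21, a synaptic adhesion protein (0.18), Gpx2, a glutathione peroxidase (0.19), Prmt8, an arginine methyltransferase (0.21), Arl14epl (0.22) and the histone gene H2ac11 (0.24). For Rhox6 the nearest were Dnajc6, a clathrin uncoating factor (0.28), Neurog1, a neurogenic transcription factor (0.30), Dppa3 (0.32), Mymx, a muscle fusion peptide (0.32), and Saa3, an acute phase protein (0.34). Rhox9 was nearest to the pseudogene Mrpl23-ps1 (0.11), Dhodh of pyrimidine synthesis (0.13), Rpp21 of ribonuclease P (0.13), the complex I subunit Ndufc1 (0.14) and the mitochondrial ribosomal gene Mrpl57 (0.14). No member was among the 5 nearest of another. The difference was 0.77 between Rhox6 and Rhox9, where Rhox9 ranked 394 of 12972 by nearness to Rhox6. It was 0.53 between Rhox5 and Rhox9, at rank 1251 from Rhox5, and 0.93 between Rhox5 and Rhox6, at rank 11211 from Rhox5.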

How the data were processed

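RNA was sequenced in 12 libraries of WT, MP8, Tas and Pph ES cells, grouped by their labels. Tools named in the submitters' processing notes, with no role given, are RSEM, HISAT2 (2.1.0), FastQC and DESeq (1.26.0), and the build is GRCm39; the annotation release is not given in the sources used here. Per the file headers, the 3 deposited tables hold expected counts and TPM per library, the authors' mean TPM, and the authors' fold change as a ratio, log2 fold change, p-value and adjusted p-value. WT values differed by 0 between tables, and 0 per-sample columns had no library.

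Rounded expected counts entered edgeR (4.0.16, under R 4.3.3; filterByExpr, TMM, 1 robust quasi-likelihood fit of 4 group means, 8 residual degrees of freedom). Standard errors were taken from the F statistics. The fit was tested on simulated data. Alternatives were other scalings, no low-count filter, DESeq2 1.42.0, fits of 2 groups, left-out libraries and a replicate block. Ratios of TPM had exact permutation tests. Floors and counting intervals cover counting error only. The members and lists were chosen with earlier results of these data known. Named genes were the members, other Rhox genes with at least 1 count, the 4 regulators called with the largest change per comparison, the tested neighbours (10 per side), and the 5 nearest patterns per member. Since the reference is GRCm38, it gave only gene order, transcripts and the promoter.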

Additional observations from a re-analysis of the deposited data

How the results depend on the processing

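The 18 comparisons of Rhox5, Rhox6 and Rhox9 were recomputed under 12 alternatives each, and 14 of them kept their direction and their side of the threshold under all 12. The log2 difference of Rhox5 between MP8 and Tas lost its call at 0.13 with no low-count filter, at 0.16 with DESeq2 and at 0.14 with the replicate block, and ranged from 0.10 to 0.18 with a library left out. With a library left out, Rhox9 ranged from -0.41 to -0.16 in Tas against WT and from -0.65 to -0.44 in MP8 against Tas, and Rhox6 from -0.053 to 0.26 in Tas against Pph, reversed without Tas replicate 1. The cause was not tested. Deviations of same-numbered libraries correlated from -0.0531 to 0.0264 over 18 pairs, and 3 of 12 libraries correlated best with their own number. No effect shared by number was thus seen. That does not tell how the libraries were handled, which the labels do not say. The replicate block changed no other call of Rhox5, Rhox6 or Rhox9, the tests of Rhox1 and Rhox7-ps2 were run under no alternative, and counts of called genes stayed between 0.884 and 1.04 times the main count under the alternatives. The summed CPM kept within 73.5 to 78.1 in WT, 39.6 to 40.8 in MP8, 39.6 to 40.7 in Tas and 23.5 to 25.0 in Pph. Depth limits Rhox6 in MP8, at 18 to 23 counts, and the other Rhox genes.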
